A study of Mus musculus with 4 samples.

Results

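C1q-expressing cells of the mouse liver were taken from 4 single-cell libraries by their transcripts. A cell was a member when its barcode held at least 200 genes and under 10% mitochondrial UMIs (unique molecular identifiers, each marking a captured mRNA molecule), at least 3 UMIs of C1qa, C1qb and C1qc together, and no UMI of Arg1, of Cd3d, Cd3e or Cd3g, of Cd79a or of Siglech. The members were thus chosen by measured values, the C1q level above all, and the levels of the genes in the rule are description. The rule found 315 members among 20039 cells. They numbered 216 of 1350 cells in the 12 h IL-22-positive library, 42 of 289 in the 0 h IL-22-positive library, 54 of 10099 in the 12 h IL-22-negative library and 3 of 8301 in the 0 h IL-22-negative library.

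C1q is the recognition molecule of the classical complement pathway. It is built from the A, B and C chains that C1qa, C1qb and C1qc encode, and in most tissues macrophages are its main source. In the liver most resident macrophages are Kupffer cells, which sit in the sinusoids and clear particles and dying cells from the blood. They carry the lectin Clec4f, the complement receptor Vsig4, the secreted scavenger protein Cd5l and the phosphatidylserine receptor Timd4. Monocytes that enter the liver carry Ly6c2 and the chemokine receptor Ccr2 and can switch on C1q genes as they become macrophages.

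All libraries came from the livers of IL-22sgBFP mice, a reporter strain in which blue fluorescent protein (BFP) stands for Il22 expression. The groups were the IL-22-positive fraction at 12 h, the IL-22-positive fraction at 0 h, the IL-22-negative fraction at 12 h and the IL-22-negative fraction at 0 h, with 1 library each. At 12 h the mice had received MC38 cells, a mouse colon carcinoma line, by injection into the spleen, from where cells drain to the liver, and 0 h is the state before that injection. Every library was sorted on CD45, the surface marker of leukocytes, and then split by blue fluorescence. The labels give neither the number of mice per library nor an injection without cancer cells, so effects of the injection itself and of the tumour cells cannot be told apart. With 1 library per group no difference between conditions can be tested. Every interval below is an exact 95% interval of counting error alone, and each ratio of 12 h to 0 h compares 2 libraries.

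The libraries held between 1148221 and 29859062 UMIs, and kept cells had a median of 1829 to 3726 UMIs. The C1q-expressing cells had a median of 3733 UMIs in the 12 h IL-22-positive library, 3916.5 in that of 0 h, 4421 in the 12 h IL-22-negative library and 2242 in that of 0 h. Of 20313 barcode strings, 151 occurred in more than 1 library, 3 members had such a string, and no string was a member in 2 libraries. Il22 itself had 0 UMIs in the C1q-expressing cells of all 4 libraries, which allows up to 3.74 CPM (UMIs of a gene per 1000000 UMIs of the sum) at 12 h and up to 16.1 CPM at 0 h in the IL-22-positive ones, where 3 UMIs set the limit. The BFP transcript is not among the measured features.

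The share of C1q-expressing cells was 16.0% (14.1 to 18.1) of the 12 h IL-22-positive library, against 14.5% (10.7 to 19.1) of that of 0 h. The 2 intervals overlap. In the IL-22-negative libraries it was 0.535% (0.402 to 0.697) at 12 h, against 0.0361% (0.00745 to 0.106) at 0 h, where the value rests on 3 cells. The sort on blue fluorescence can set these shares, so they do not give the number of such cells in the liver. At 12 h the IL-22-positive share was 29.9 times the IL-22-negative one. B cells served as a measure of stray transcripts. They held at least 2 UMIs of Cd79a and none of Cd3d, Cd3e, Cd3g or Lyz2. Leaving out cells with Lyz2, a myeloid transcript, can make this measure too low, here and below. B cells with any C1q UMI numbered 1 of 22 at 12 h and 3 of 32 at 0 h in the IL-22-positive libraries. In the 12 h IL-22-negative library they numbered 9 of 1632. Those B cells had median depths of 1499, 2186.5 and 1643 UMIs, and 0, 1 and 1 of them reached the 3 UMIs that the rule asks for.

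The 3 chains lie side by side on chromosome 4 of GRCm38, on the minus strand, with C1qb at chr4:136880129-136886187, C1qc at chr4:136889804-136893065 and C1qa at chr4:136895917-136898803. Because the rule used them, their levels are a description. A cell held a median of 14 C1q UMIs in the 12 h IL-22-positive library, 51 in that of 0 h, 16 in the 12 h IL-22-negative library and 48 in that of 0 h. The highest cell held 173 at 12 h and 163 at 0 h in the IL-22-positive libraries, so the ranges overlap. At the edge of the rule, 19 members of the 12 h IL-22-positive library held exactly 3 C1q UMIs and another 19 cells that met every other criterion held 2, against 0 and 2 cells in that of 0 h. Of the 19 cells just inside 17 held a Ly6c2 or Ccr2 UMI, as did 15 of the 19 just outside. All 3 chains were seen in 139 of 216 members at 12 h and in 34 of 42 at 0 h.

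**Figure D1:**
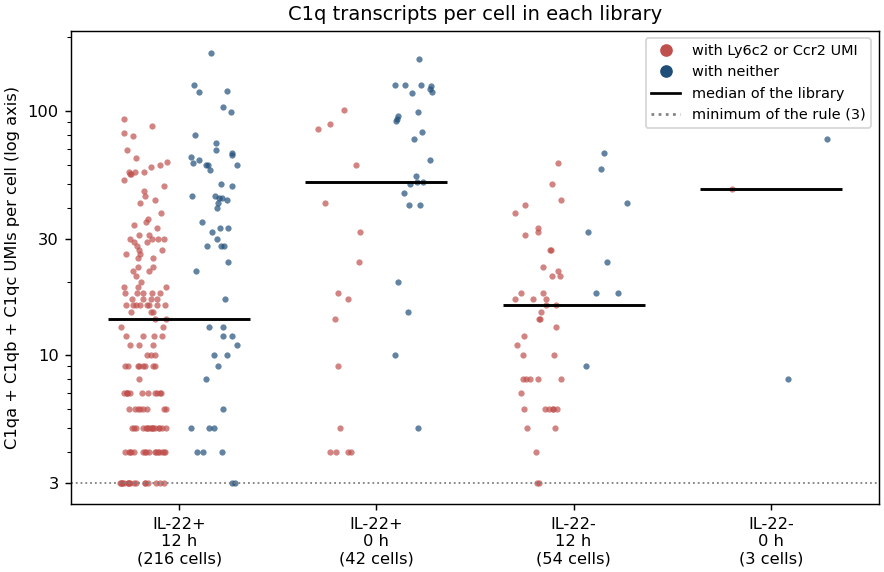
Each point is 1 C1q-expressing cell, placed by its summed UMIs of C1qa, C1qb and C1qc on a log axis, for the 4 libraries, and split into cells with a UMI of Ly6c2 or Ccr2 (red) and cells with neither (blue). The black lines are library medians (14, 51, 16 and 48), and the cells with neither gene sit higher than the others in the IL-22-positive libraries.

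Kupffer-cell genes were nearly absent. Clec4f had 0 UMIs in all 315 members. Any UMI of Clec4f, Vsig4, Cd5l or Timd4 was found in 2 of 216 members of the 12 h IL-22-positive library (0.926%, 0.112 to 3.30), against 3 of 42 in that of 0 h (7.14%, 1.50 to 19.5). The IL-22-negative libraries had none, in 54 and 3 members, which allows a share of up to 5.56% at 12 h (3 cells) and gives no useful limit at 0 h. The 2 cells of 12 h held 1 UMI each, of Cd5l in one and of Vsig4 in the other. The 3 cells of 0 h held 7, 1 and 6 UMIs over the 4 genes. With each cell thinned to 2000 UMIs, none of 174 cells at 12 h kept such a UMI, against 3 of 37 at 0 h. The genes that define Kupffer cells were thus at or near 0, so the cells are called C1q-expressing cells and not Kupffer cells. Whether some are resident macrophages of another kind was not tested. Few cells of the whole libraries held these genes: 10 of 1350 and 5 of 289 cells of the 12 h and 0 h IL-22-positive libraries, and 5 of 10099 and 1 of 8301 of the IL-22-negative ones, held any UMI of the 4.

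The 3 Kupffer-gene cells of 0 h held further macrophage transcripts, not all of them in each cell. Fcna, which encodes the blood lectin ficolin A, had 31, 11 and 59 UMIs in them, which is 101 of the 104 UMIs in that library's 42 members. Retnla, which encodes the secreted resistin-like protein of alternatively activated mouse macrophages, had 0, 140 and 72 UMIs, or 212 of 267. Folr2, a folate receptor of resident macrophages, had 5, 4 and 7 UMIs, or 16 of 17. None of the 3 cells held a UMI of Ly6c2, Ccr2 or Cx3cr1. Set against the other 39 members of that library, the phospholipid carrier Pltp (ratio 10.9, 6.30 to 19.0) and the transcription factor Egr1 (ratio 11.1, 7.20 to 17.2) were also higher in these cells. Cd52, a small surface glycoprotein of leukocytes, was lower there (1 against 404 UMIs, ratio 0.0252, 0.000637 to 0.141). The 2 such cells of 12 h held no UMI of Fcna, Retnla or Folr2, and no further gene is named from so few cells and UMIs.

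General macrophage genes were present. Csf1r, the receptor for the macrophage growth factor CSF1, had 501 CPM in the 12 h IL-22-positive library, 681 in that of 0 h and 329 in the 12 h IL-22-negative library. After thinning to 2000 UMIs per cell, Csf1r was seen in 107 of 174 cells at 12 h (61.5%) and in 23 of 37 at 0 h (62.2%), while none of the B cells of either IL-22-positive library held it. Cx3cr1, the fractalkine receptor, was seen in 35.1% of thinned cells at 12 h, against 59.5% at 0 h. Ms4a7, a membrane protein of mature macrophages, was seen in 16.7% at 12 h, against 64.9% at 0 h. Adgre1, which encodes the macrophage antigen F4/80, was seen in 12.1% at 12 h and 32.4% at 0 h, and the mannose receptor Mrc1 in 5.75% and 24.3%. Unthinned, the same genes were seen in 50.5% and 69.0% (Cx3cr1), 26.9% and 69.0% (Ms4a7), 20.8% and 47.6% (Adgre1), and 11.6% and 33.3% (Mrc1) of members at 12 h and 0 h. In B cells of these libraries each of the 4 genes was in at most 1 cell.

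Most of the cells at 12 h also carried monocyte genes. A UMI of Ly6c2 or Ccr2 was present in 160 of 216 members of the 12 h IL-22-positive library (74.1%, 67.7 to 79.8), against 16 of 42 of that of 0 h (38.1%, 23.6 to 54.4). The 12 h IL-22-negative library had 46 of 54 (85.2%, 72.9 to 93.4). Thinned to 2000 UMIs per cell, the shares were 131 of 174 (75.3%), 12 of 37 (32.4%) and 40 of 49 (81.6%), with 42, 5 and 5 shallower cells left out. Of the cells left out, 30, 5 and 3 held neither gene. Their loss raises the thinned shares, which therefore do not show that the shares are free of depth. Among B cells, Ly6c2 was in 0 of 22 and Ccr2 in 1 of 22 at 12 h, and Ly6c2 in 2 of 32 and Ccr2 in 0 of 32 at 0 h, in the IL-22-positive libraries. This make-up differs between the 2 IL-22-positive libraries, so the comparison of 12 h with 0 h below is given also for the cells with neither gene (56 cells at 12 h, 26 at 0 h) and for the cells with either (160 and 16). That split was chosen after the values were seen.

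**Figure D2:**
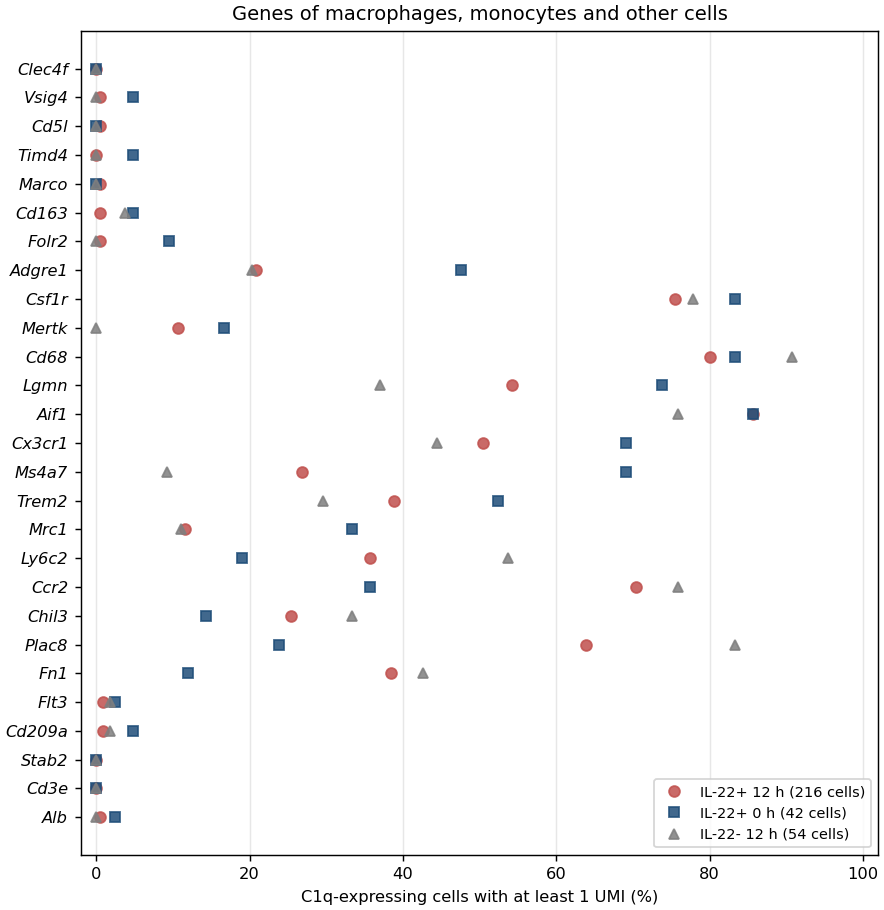
Share of C1q-expressing cells with at least 1 UMI of each gene, in percent, in the 12 h IL-22-positive library (red circles, 216 cells), that of 0 h (blue squares, 42 cells) and the 12 h IL-22-negative library (grey triangles, 54 cells), without thinning. Clec4f, Stab2 and Cd3e are at 0 in all 3, Ccr2 lies at 70.4%, 35.7% and 75.9%, and Ms4a7 at 26.9%, 69.0% and 9.26%.

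The cells with neither Ly6c2 nor Ccr2 held more C1q, with a median of 34 UMIs at 12 h and 79.5 at 0 h, against 10.5 and 17.5 in the cells with either gene. They were also shallower at 12 h, at a median of 1829.5 UMIs per cell against 4125. Within each IL-22-positive library the share of cells with Ly6c2 or Ccr2 was lower in the class with 30 or more C1q UMIs. At 12 h it was 87.5% (78.7 to 93.6) of the 88 cells with 3 to 9 C1q UMIs, 80.0% (68.2 to 88.9) of the 65 cells with 10 to 29, and 49.2% (36.4 to 62.1) of the 63 cells with 30 or more. At 0 h it was 6 of 7, 4 of 7 and 6 of 28 cells in the same classes. Among the cells with 30 or more C1q UMIs, the share was thus 49.2% at 12 h, against 21.4% (8.30 to 41.0) at 0 h, and the intervals overlap. Cx3cr1 ran the other way, with 226, 251 and 557 CPM across the 3 classes at 12 h, and 348, 384 and 762 CPM at 0 h.

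Summed over all members, C1qa had 2096 CPM at 12 h, against 4951 CPM at 0 h, and C1qb 2923 against 5230 CPM. In cells with neither Ly6c2 nor Ccr2, C1qa had 7434 CPM at 12 h, against 10113 CPM at 0 h, and in cells with either gene 1035 against 1019 CPM. The gap over all members was thus wider than that within either group of cells. The balance of the chains also differed between these cells. C1qa made up 31.6% (29.6 to 33.6) of the UMIs of C1qa and C1qb in cells with Ly6c2 or Ccr2 at 12 h, and 26.9% (22.6 to 31.5) in those of 0 h. In the cells with neither gene it made up 53.9% (51.6 to 56.2) at 12 h and 54.5% (51.9 to 57.0) at 0 h. Over all members it was 41.8% (40.2 to 43.3) at 12 h, against 48.6% (46.4 to 50.9) at 0 h.

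**Figure D3:**
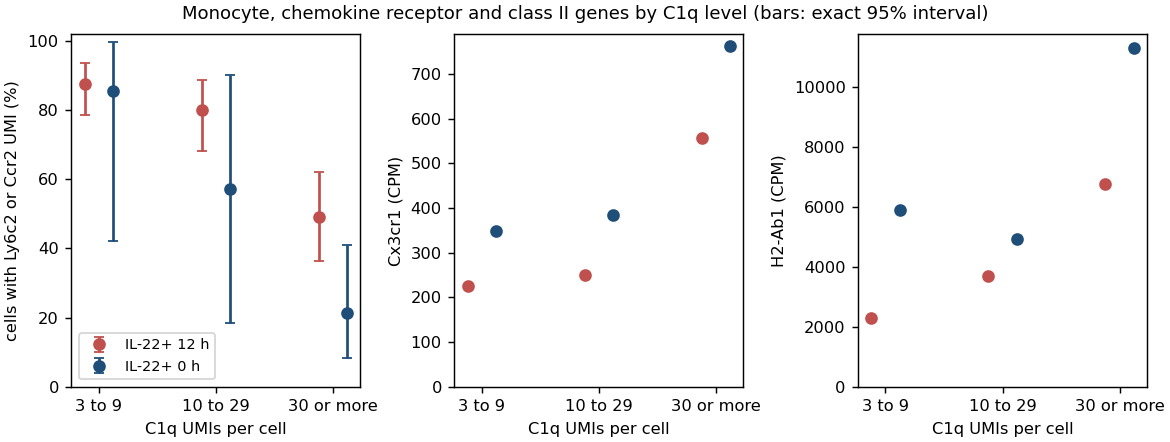
IL-22-positive C1q-expressing cells of 12 h (red) and 0 h (blue) in 3 classes of C1q UMIs per cell. Left, share of cells with a Ly6c2 or Ccr2 UMI with its exact 95% interval; middle and right, CPM of Cx3cr1 and H2-Ab1 in the summed cells of each class. The left values are lowest, and the other 2 genes highest, in the cells with 30 or more C1q UMIs.

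For the comparison of 12 h with 0 h, UMIs of the members were summed per library (802552 at 12 h, 186627 at 0 h) and given as CPM. Of 2499 genes with at least 50 UMIs in the 2 sums, 226 (9.04%) were at least 2-fold higher at 12 h and 140 (5.6%) at least 2-fold lower. Over all 2499 genes the median log2 ratio was 0.17, so the ratio of a list is read against that value. Scaling by the median ratio in place of total UMIs gave 157 higher and 205 lower genes, so that 43.4% of the genes past 2-fold were higher, against 61.7% with total UMIs. Without the cell that held most UMIs of each gene, 206 were higher and 90 lower. In cells with neither Ly6c2 nor Ccr2, 544 genes could be measured, of which 11.6% were 2-fold higher and 6.8% 2-fold lower. In cells with either gene the shares were 9.95% and 4.67% of 1990 genes, and in classical monocytes of the same libraries 5.1% and 6.34% of 4413. Of the 140 lower genes, 49 could be measured in the cells with neither gene and 27 of those were 2-fold lower there. Of the 226 higher genes, 23 could be measured there and 17 were 2-fold higher. Those cells are part of the members that gave the 226 and 140 genes, so these counts are description and no separate support.

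The highest ratios belonged to interferon-induced, acute-phase and monocyte genes, among others. Rsad2, an interferon-induced antiviral enzyme, had 312 CPM (250 UMIs in 27 cells) at 12 h, against 5.36 CPM (1 UMI) at 0 h, a ratio of 58.1 (10.3 to 2305). S100a8, a subunit of the alarmin calprotectin, had 240 UMIs at 12 h, against 1 at 0 h, a ratio of 55.8 (9.92 to 2213). Its UMIs were concentrated, with 170 of the 240 in 3 cells, and the ratio was 32.1 without the top cell. Saa3, an acute-phase protein that mouse macrophages make, had 627 CPM at 12 h and 16.1 CPM at 0 h, a ratio of 39.0 (13.3 to 190), and 205 of its 503 UMIs at 12 h were in 3 cells. Slpi, a secreted protease inhibitor, had 218 UMIs in 44 cells at 12 h and 0 at 0 h, so that it was at least 16.9-fold higher (0 set to 3 UMIs over the group). The proteoglycan Vcan (14.4), the exonuclease Isg20 (13.5), the MYC-network repressor Mxd1 (13.3), the interleukin-1 receptor antagonist Il1rn (13.02), the sulfatase Sulf2 (11.9) and the glycolytic enzyme Pfkp (11.4) followed, each with 1 or 2 UMIs at 0 h. The lower ends of their intervals lay between 1.95 (Pfkp) and 3.65 (Isg20). Of the 15 highest genes, 10 were also 2-fold higher at 12 h in classical monocytes of the same libraries. There 14 of the 15 had a ratio above 1 and Sulf2 one below it (0.526, 0.307 to 0.946). Of all 4413 genes measured in those monocytes 5.1% were 2-fold higher and 6.34% 2-fold lower. Over all genes 2-fold higher in the C1q-expressing cells, 31 of the 223 that could be measured in those monocytes (13.9%) were 2-fold higher there, and 50 of 119 lower genes (42.0%) were 2-fold lower. In C1q-expressing cells with neither Ly6c2 nor Ccr2 none of the 15 highest genes reached 50 UMIs, so no count is given for them there. Those monocytes (at least 2 UMIs of Ly6c2, at least 3 of Lyz2 and none of C1q, by the same exclusions) numbered 428 at 12 h and 66 at 0 h.

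Several of the genes with the lowest ratios are known from mature macrophages. Retnla and Fcna had 0 UMIs at 12 h, against 267 and 104 at 0 h, and lay mostly in the Kupffer-gene cells described above. All 267 Retnla UMIs were in 3 cells, of which 2 were Kupffer-gene cells, and 55 of the UMIs lay outside those 2. Cd81, a tetraspanin of the cell surface, had 107 CPM (86 UMIs in 41 of 216 cells) at 12 h, against 756 CPM (141 UMIs in 30 of 42 cells) at 0 h, a ratio of 0.142 (0.107 to 0.187). Among cells with neither Ly6c2 nor Ccr2 its ratio was 0.322 (0.236 to 0.437). Fcgrt, the Fc receptor that recycles IgG, had 28.7 CPM at 12 h, against 204 CPM at 0 h, a ratio of 0.141 (0.0801 to 0.242). Selenop, a secreted selenium carrier, had a ratio of 0.193 (0.152 to 0.245), and 0.277 in cells with neither gene. Cd72, an inhibitory lectin receptor, had a ratio of 0.153 and Pltp one of 0.204 (0.138 to 0.303). Acp5 (0.255), Stard3nl (0.273), the lysosomal protease Ctsl (0.274), the glutathione transferase Gstm1 (0.284), Ms4a7 (0.287) and the thromboxane synthase Tbxas1 (0.295) were lower as well. In cells with neither Ly6c2 nor Ccr2 the ratio of Ms4a7 was 0.624 (0.471 to 0.828) and that of Tbxas1 0.421 (0.242 to 0.721). Over all members the ratio of Tbxas1 was 0.455 without the top cell. Gpnmb, a lysosomal glycoprotein of lipid-laden macrophages, had a ratio of 0.145 (0.0845 to 0.246), with 35 of its 40 UMIs at 0 h in 3 cells, and 0.228 without the top cell. The uncharacterised 2810013P06Rik had a ratio of 0.144. Of the 15 lowest genes, 9 reached 50 UMIs in cells with neither gene, and 8 of these were 2-fold lower there. Those cells are among the members that ranked the genes, so this count is description.

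**Figure D4:**
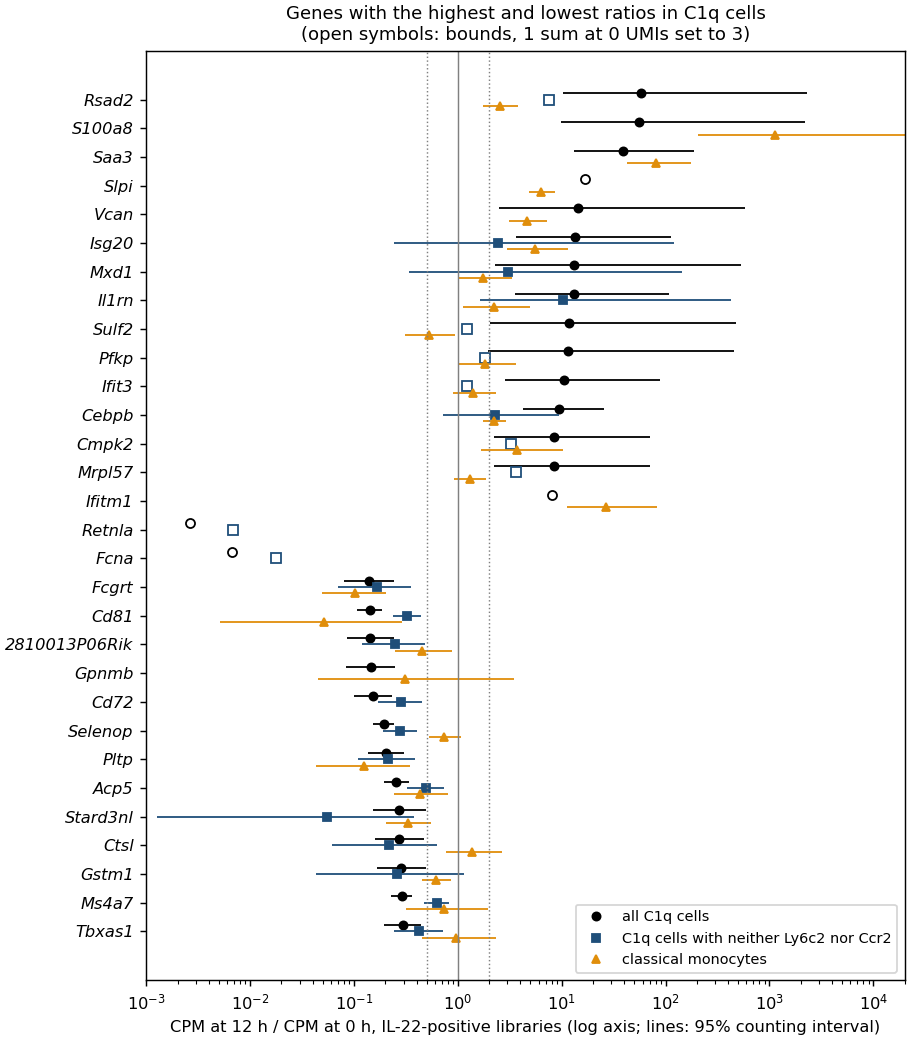
CPM ratio of 12 h over 0 h on a log axis for the 15 highest and 15 lowest genes, in all IL-22-positive C1q-expressing cells (black circles), in those with neither Ly6c2 nor Ccr2 (blue squares) and in classical monocytes of the same libraries (orange triangles), with exact 95% counting intervals. Open symbols are bounds where 1 sum had 0 UMIs, and dotted lines mark 2-fold. Blue squares and orange triangles are drawn also where the sums held under 50 UMIs, as blue squares did for all of the 15 highest genes that have one. The intervals of the highest genes are wide because their sums at 0 h held 0 to 6 UMIs.

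Genes induced by type I interferon, a group of antiviral cytokines, were higher at 12 h. Of 18 measured genes of that list, 12 were 2-fold higher and none lower (median log2 ratio 1.46), where 9.04% of all measured genes were higher. With median-ratio scaling 9 were 2-fold higher. Isg15, a ubiquitin-like modifier, had 1695 CPM (1606 to 1787) in the 12 h IL-22-positive library, 268 CPM (199 to 353) in that of 0 h and 1042 CPM (917 to 1179) in the 12 h IL-22-negative library. The ratio of 12 h to 0 h was 6.33 (4.77 to 8.57). After thinning, Isg15 was seen in 87 of 174 cells at 12 h, against 10 of 37 at 0 h. Irf7, the transcription factor that amplifies interferon production, had a ratio of 5.74 (2.97 to 12.7) and Ifit3, an RNA-binding antiviral protein, one of 10.6 (2.85 to 88.7). Ifit1 (3.43), Ifit2 (3.62), Oasl1 (4.07), the ISG15 protease Usp18 (3.95), the nucleotide kinase Cmpk2 (8.37), Phf11b (2.21), the virus-entry inhibitor Ifitm3 (2.16) and the nucleic acid sensor Zbp1 (2.11) were also past 2-fold. Bst2 (1.10), Rtp4 (1.07) and Xaf1 (0.784) were not.

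In classical monocytes 6 of 19 measured interferon genes were 2-fold higher, among them Isg15 (3.43) and Rsad2 (2.52), at a median log2 ratio of 0.41, where 5.1% of all measured genes were higher. The summed level of the list in monocytes was 11938 CPM at 12 h and 11751 CPM at 0 h. In C1q-expressing cells with Ly6c2 or Ccr2, 11 of 18 were higher (Isg15 4.75, 3.47 to 6.68). In those with neither, 4 could be measured and Isg15 alone was 2-fold higher, with a ratio of 9.64 (5.11 to 20.5). The difference between these groups of cells was not tested. Of genes that respond mainly to interferon gamma, 3 of 8 were 2-fold higher over all members, where 9.04% of all measured genes were. They were Cxcl9, and the guanylate-binding proteins Gbp2 (3.49, 1.54 to 9.76) and Gbp7 (5.58, 1.46 to 47.4).

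The letters upstream of 4 of these genes are shown because interferon-induced genes are known to share a promoter element. The motif searched was GAAANNGAAA on both strands, so that TTTCNNTTTC marks it on the other strand, and matches may overlap. Capitals mark the matches in the 160 bases before the start of each gene, 5′ to 3′ on the gene's strand, from RefSeq on GRCm38.p6. The stretches are chr4:156200819-156200978 (minus strand), chr12:26456453-26456612 (minus strand), chr19:34583369-34583528 (plus strand) and chr19:34640729-34640888 (plus strand).
Isg15: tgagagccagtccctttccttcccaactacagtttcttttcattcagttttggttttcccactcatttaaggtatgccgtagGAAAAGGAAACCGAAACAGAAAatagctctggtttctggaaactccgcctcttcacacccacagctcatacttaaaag
Rsad2: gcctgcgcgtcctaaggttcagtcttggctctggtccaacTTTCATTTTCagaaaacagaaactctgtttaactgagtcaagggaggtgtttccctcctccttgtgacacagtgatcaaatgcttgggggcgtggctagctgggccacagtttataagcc
Ifit3: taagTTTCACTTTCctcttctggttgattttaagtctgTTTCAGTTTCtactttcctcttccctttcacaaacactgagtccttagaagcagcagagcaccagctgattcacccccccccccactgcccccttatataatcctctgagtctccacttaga
Ifit1: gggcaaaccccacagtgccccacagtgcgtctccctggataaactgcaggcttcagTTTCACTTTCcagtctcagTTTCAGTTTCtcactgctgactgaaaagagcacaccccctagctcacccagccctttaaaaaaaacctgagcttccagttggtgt
Isg15 holds 3 overlapping matches, Ifit3 and Ifit1 hold 2 each and Rsad2 holds 1. In windows of 300 bases, from 250 before to 50 after the start, 8 of the 15 list genes with a window hold the motif, as do 6 of the 10 that were 2-fold higher and have a window. Of all 32851 windows 1131 (3.44%) hold it. A match describes the letters and no more.

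Monocyte and alarmin genes were higher at 12 h. Of 12 measured monocyte genes, 7 were 2-fold higher and 1 lower (median log2 ratio 1.41). Of all measured genes 9.04% were higher and 5.6% lower. Ly6c2 had 1014 CPM in the 12 h IL-22-positive library, 252 in that of 0 h and 873 in the 12 h IL-22-negative library. Plac8 (3.47), Ms4a4c (2.61), the coagulation factor F13a1 (2.69), the matrix protein Thbs1 (7.83), Vcan and the myeloid transcription factor Cebpb (9.34, 4.23 to 25.7) were the other 2-fold higher members, and Ccr2 had a ratio of 1.69. Lyz2, the lysozyme of myeloid cells, was lower, with 6346 CPM at 12 h and 16177 CPM at 0 h (ratio 0.392, 0.375 to 0.410). It was lower in classical monocytes too (0.471). Of 12 measured alarmin and S100 genes 7 were 2-fold higher and none lower. They were S100a4 (2.57), S100a6 (3.67, 3.11 to 4.36), S100a10 (2.55), S100a11 (3.43), S100a8, Saa3 and the iron-siderophore binder Lcn2 (at least 6.36-fold, 82 against 0 UMIs). In cells with neither Ly6c2 nor Ccr2 at 12 h S100a8 had 0 UMIs, Vcan 1 and Lcn2 2. In the same cells 3 alarmin genes could be measured, of which S100a6 (65 UMIs at 12 h, 6 at 0 h) and the galectin Lgals3 (176 and 18) were 2-fold higher and Wfdc17 (85 and 105) 2-fold lower. Of 3 monocyte genes measured there Plac8 (56 and 0) was 2-fold higher, and Fn1 (14 and 42) and Lyz2 (565 and 1428) were 2-fold lower. The share of cells with Ly6c2 or Ccr2 differs between the libraries as given above. Its part in these ratios was not tested.

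Genes of antigen presentation on MHC class II were lower at 12 h. Of 7 measured genes 5 were 2-fold lower and none higher, with a median log2 ratio of -1.19, where 5.6% of all measured genes were lower. Cd74, the invariant chain that guards the class II groove, had 11563 CPM at 12 h, 36865 CPM at 0 h and 23891 CPM in the 12 h IL-22-negative library. Its ratio of 12 h to 0 h was 0.314 (0.304 to 0.324). The chains H2-Eb1 (0.354), H2-Ab1 (0.432) and H2-Aa (0.439) and the peptide-loading factor H2-DMb1 (0.457) were lower too, and H2-DMa (0.905) and the class II transactivator Ciita (0.901) were not past 2-fold. The same list was lower in cells with neither Ly6c2 nor Ccr2 (4 of 6 genes, Cd74 0.339), in cells with either (2 of 7, Cd74 0.438) and in classical monocytes (5 of 7, Cd74 0.196). H2-Ab1 was lower at 12 h in each class of C1q level, with 2306 against 5891 CPM at 3 to 9 C1q UMIs, 3680 against 4928 CPM at 10 to 29, and 6756 against 11312 CPM at 30 or more.

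Lipid-handling genes, many of them targets of the oxysterol receptor LXR, had more lower than higher members at 12 h. Of 15 measured genes 5 were 2-fold lower and 1 higher, with a median log2 ratio of -0.58. Of all measured genes 5.6% were lower and 9.04% higher. Apoe, the apolipoprotein that carries cholesterol out of macrophages, had 6096 CPM (199 of 216 cells) at 12 h, 18904 CPM (41 of 42 cells) at 0 h and 4015 CPM in the 12 h IL-22-negative library. The ratio of 12 h to 0 h was 0.322 (0.309 to 0.337), and 0.524 (0.494 to 0.556) in cells with neither Ly6c2 nor Ccr2. The cholesterol exporter Abca1 (0.439) and Pltp were lower, and Apoc2 was higher (2.31, 1.46 to 3.87). The lipid chaperone Fabp5 had a ratio of 0.351, but 1 cell held 89 of its 183 UMIs at 0 h and the ratio was 0.642 without the top cell. Trem2, a lipid-sensing receptor, had a ratio of 0.551 (0.410 to 0.748) over all members and 2.30 (1.29 to 4.38) in those with neither gene.

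Beside the lists that follow, 5.6% of all measured genes were 2-fold lower and 9.04% higher. Lysosomal proteases and related genes were lower in 4 of 16 and higher in none. The 4 were the cathepsins Ctsb (0.478, 0.425 to 0.539), Ctsd (0.494), Ctsh (0.444) and Ctsl. Ctsb and Ctsd were 0.311 and 0.318 in cells with Ly6c2 or Ccr2, but 1.40 (1.12 to 1.78) and 1.45 (0.984 to 2.18) in those with neither. Among 6 Fc receptors, which bind antibody, Fcgr3 (0.427), Fcgr4 (0.455) and Fcgrt were 2-fold lower, and the shared signalling chain Fcer1g was not (1.13). Of 12 general macrophage genes Adgre1 (0.440, 0.273 to 0.723) and the transcription factor Maf (0.465) were 2-fold lower, while Csf1r (0.736), Cd68 (0.760) and Tyrobp (1.25) were not. Of 8 measured complement genes other than C1q, the central component C3 (3.00, 1.53 to 6.72) and factor B, Cfb (2.84, 1.15 to 9.05), were higher, and properdin, Cfp (0.297, 0.188 to 0.473), and the C3a receptor C3ar1 (0.304, 0.197 to 0.474) were lower.

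**Figure D5:**
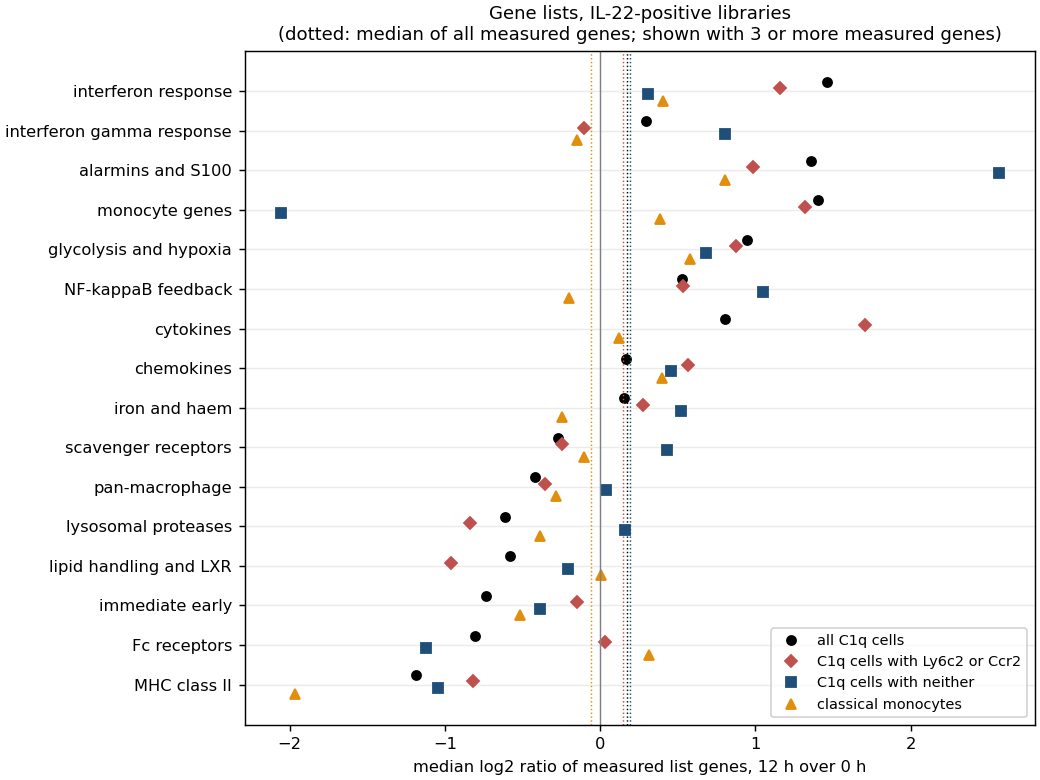
Median log2 ratio of 12 h over 0 h for 16 gene lists in the IL-22-positive libraries, in all C1q-expressing cells (black), in those with Ly6c2 or Ccr2 (red), in those with neither (blue) and in classical monocytes (orange). Dotted lines are the medians of all measured genes in each. The class II list lies below 0 in all 4 groups of cells, and the interferon list above its dotted line in all 4. In cells with neither gene the interferon point is the median of 4 genes, at 0.31 against 0.19 for all genes. Points with 3 to 5 genes are loose, such as that one and the monocyte and alarmin lists in the same cells.

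Chemokines showed no common direction. Of 14 measured genes 3 were 2-fold higher and 1 lower, where 9.04% of all measured genes were higher and 5.6% lower. The median log2 ratio of 0.17 equals that of all genes and is 0.00 with median-ratio scaling. Cxcl9, a ligand of the T-cell chemokine receptor CXCR3 that interferon gamma induces, had 739 CPM (681 to 801) in the 12 h IL-22-positive library, 96.4 CPM (57.2 to 152) in that of 0 h and 387 CPM (313 to 474) in the 12 h IL-22-negative library. It was carried by few cells, with 593 UMIs in 22 of 216 cells at 12 h and 18 UMIs in 2 of 42 cells at 0 h, and the ratio was 7.66 (4.81 to 13.02). Cxcl10, which binds the same receptor, had a ratio of 2.86 (2.20 to 3.77). Ccl7, a ligand of CCR2, had a ratio of 2.18 (1.23 to 4.22) with 73 of its 122 UMIs at 12 h in 3 cells, and Pf4, a platelet and macrophage chemokine, one of 0.474 (0.336 to 0.677). The further CCR2 ligands Ccl2 (1.29) and Ccl12 (1.26) were not past 2-fold over all members, and were 2.45 (1.63 to 3.78) and 2.32 (1.52 to 3.65) in cells with neither Ly6c2 nor Ccr2. Of 6 measured cytokines Il1rn and oncostatin M, Osm (4.42, 1.44 to 22.1), were 2-fold higher. Il1b had 664 CPM at 12 h, against 397 CPM at 0 h (1.67, 1.31 to 2.17).

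Genes of glycolysis and hypoxia were higher in 6 of 13 and lower in none. Over all measured genes, here and for the lists below, 9.04% were higher and 5.6% lower. Pgk1 (5.58, 2.33 to 17.5), Pkm (2.88), Pfkp and Pfkl (2.09, 0.834 to 6.76) encode enzymes of glycolysis, Hif1a (2.29) the hypoxia-inducible factor and Mif (4.19, 2.88 to 6.31) a macrophage cytokine. Of 11 genes of NF-kappaB feedback, the inhibitor Nfkbia (2.23, 1.91 to 2.62), the superoxide dismutase Sod2 (3.44, 2.08 to 6.13) and Tnip3 (2.46, 0.993 to 7.90) were 2-fold higher and none lower. For Tnip3 and Pfkl the counting interval includes 1. Immediate-early genes, which tissue digestion is known to induce, were lower in 6 of 18 and higher in none. The 6 were Jun (0.442), Fosb (0.317), Jund (0.335), Klf2 (0.338) and the heat-shock genes Hspa1a (0.401) and Hspa1b (0.440), while Atf3 (1.29) and Egr1 (1.22) were above 1. In cells with neither Ly6c2 nor Ccr2, 2 of 17 (Jund and Klf2) were 2-fold lower and Atf3 was 2-fold higher. In cells with either gene, 2 of 16 (Jund and Hspa1a) were lower and Ier3 was higher. In classical monocytes 5 of 17 were 2-fold lower. The part of the cell make-up in the ratios over all members was not tested. Whether handling differed between the libraries was not tested.

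The remaining lists are small, and a list with 1 gene past 2-fold one way is not read as changed. Over all measured genes 9.04% were 2-fold higher and 5.6% lower. Of 7 measured repair genes 4 were past 2-fold, with Thbs1, the elastase Mmp12 and the matrix protein Tgfbi higher and the protease inhibitor Timp2 lower. Of 7 measured scavenger receptors Mrc1 was lower, and of 6 iron and haem genes Blvrb, which reduces biliverdin, was lower. None of 5 measured genes for the uptake of dying cells was past 2-fold. Of 8 pattern recognition genes the lectin receptor Clec4e was higher and Clec4n lower, and of 3 non-classical monocyte genes Adgre4 was higher. Of 4 measured genes on the longer Kupffer list Fcna was lower and 3 were not past 2-fold (median log2 ratio 0.31). In cells with neither Ly6c2 nor Ccr2, 3 of that list could be measured. There Id1 and Id3 were 2-fold higher and Fcna lower, where 11.6% of all measured genes were higher and 6.8% lower.

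Within the 12 h IL-22-positive library, the 160 cells with Ly6c2 or Ccr2 and the 56 cells with neither differed in monocyte, alarmin and chemokine genes, among others. Of 2078 measured genes 236 (11.4%) were 2-fold higher and 140 (6.74%) 2-fold lower in the cells with either gene, and Ly6c2 and Ccr2 differ by construction. Monocyte genes were higher in 10 of 12, those 2 among them, and alarmin genes in 10 of 12. Saa3 had 747 CPM in the cells with either gene, against 22.5 CPM in those with neither (ratio 33.1, 11.3 to 161), and Chil3 had 363 and 22.5 CPM (16.1, 5.44 to 78.6). H2-M2, a non-classical MHC gene, had 8.96 CPM in the cells with either gene and 406 CPM in those with neither (0.0221, 0.00776 to 0.0513), and Zmynd15 had 10.5 and 466 CPM (0.0224). The adhesion molecule Vcam1 (0.0497), Cd81 (0.0564), Pf4 (0.0629), Ms4a7 (0.102) and the scavenger receptor Stab1 (0.104) were lower in the cells with either gene as well. The stress cytokine Gdf15 had a ratio of 0.0497, but 1 cell held 46 of its 64 UMIs in the cells with neither gene, and the ratio was 0.171 without the top cell. The chemokine list was lower in 7 of 13 and the immediate-early list in 11 of 18. The cells with neither gene were shallower, as given above. The thinned shares left out 30 of these 56 cells, so the part of depth in their assignment was not tested.

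At 12 h the C1q-expressing cells of the IL-22-positive library were set beside the 54 of the IL-22-negative one, a comparison chosen after the values were seen. Of 2586 measured genes 151 (5.84%) were 2-fold higher and 145 (5.61%) lower in the IL-22-positive cells. Zmynd15 had 86.0 CPM in the IL-22-positive cells, against 4.12 CPM in the IL-22-negative ones (20.9, 3.62 to 836). Pf4 had 130 and 12.4 CPM (10.5, 3.49 to 51.7), Cd63, a tetraspanin of lysosomes, 320 and 37.1 CPM (8.64, 4.48 to 19.1), and Ms4a7 198 and 32.9 CPM (6.01, 2.98 to 14.2). The share of members with neither Ly6c2 nor Ccr2 was larger in the IL-22-positive library, at 56 of 216 against 8 of 54, and its part in these ratios was not tested. Cebpb had 300 CPM in the IL-22-positive cells, against 1841 CPM in the IL-22-negative ones (0.163, 0.139 to 0.191), and the actin-binding Tagln2 155 and 1091 CPM (0.142, 0.113 to 0.176). In classical monocytes of the same 2 libraries the ratios were 0.234 for Cebpb and 0.213 for Tagln2, so both genes were lower in the IL-22-positive monocytes too. Haemoglobin transcripts of the IL-22-negative members lay in 1 cell, and 71 of the 77 Gzma UMIs in another single cell.

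Markers of other cell types were low in the members. At 12 h and 0 h in the IL-22-positive libraries the summed levels were 0 and 0 CPM for T-cell markers, 17.4 and 42.9 for B-cell markers, 26.2 and 69.7 for sinusoidal endothelium, 9.97 and 26.8 for hepatocytes, 111 and 150 for dendritic cells, 0 and 5.36 for epithelial cells, and 3.74 and 225 for NK cells, where 1 cell of 0 h held all 31 Gzma UMIs. Stab2 and Clec4g of the endothelium, Cd79a and Igkc of B cells, and Epcam of epithelial cells had 0 UMIs in both libraries. Neutrophil markers had 361 CPM at 12 h, against 53.6 CPM at 0 h, with S100a8 making up 240 of the 290 UMIs at 12 h, while Ly6g, Cxcr2 and Retnlg had 0 UMIs in both. Haptoglobin, Hp, which hepatocytes and myeloid cells make, had 276 UMIs in 69 cells at 12 h and 5 UMIs in 3 cells at 0 h, while Saa1, Saa2 and Orm1 together had at most 3 UMIs in either library. Scrublet, which scores doublets, called 2 of 1378 barcodes at 12 h and 2 of 300 at 0 h in the IL-22-positive libraries, of which 0 and 2 were members.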

How the data were processed

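Single cells were profiled with the 10x Genomics 3' chemistry, per the labels' protocols. The authors deposited raw UMI counts per gene and barcode, made with Cell Ranger 4.0.0 per the file headers, while the submitters' processing notes name Cell Ranger 3.0.1 and the genome mm10. Of 32285 features, 32158 matched the GRCm38 annotation used for positions.

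From these counts, cells were kept at 200 or more genes and a mitochondrial UMI share below 10%, members were taken by the rule stated above, and their UMIs were summed per library. Ratios are of CPM, for genes with at least 50 UMIs in the 2 sums, and 2-fold is the limit for calling a gene higher or lower. Intervals are exact (Poisson for sums, Clopper-Pearson for shares, conditional binomial for ratios) at 95%, and 0 was set to 3 UMIs over the group for bounds. UMIs correct for amplification, but the intervals and limits cover counting error only. With 1 library per group no test was run. Genes named were the 15 highest and 15 lowest ratios that stayed past 2-fold without the cell with most UMIs. For Kupffer-gene cells 10 each way were taken. Mitochondrial, ribosomal, antigen receptor, Y-linked and hepatocyte genes and Xist were left out of these rankings. The members of 40 fixed lists past 2-fold (379 genes, 378 among the features) were named as well. The members and lists were chosen with earlier results of these data known. The same naming limit of 10 each way was used for the comparisons within 12 h.

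Alternatives were other C1q minimums, a mitochondrial limit of 5%, removal of Scrublet doublet calls (doublets were kept otherwise), thinning of each cell to 2000 UMIs, median-ratio scaling, totals without mitochondrial and ribosomal genes, other UMI minimums, and subsets by Kupffer genes. The subsets by Ly6c2 and Ccr2 were added after the data were seen. Python 3.11.15, numpy 2.4.6, scipy 1.17.1, pandas 2.3.3 and scanpy 1.11.5 were used, and the scripts were tested on simulated data. Promoter letters came from RefSeq tables on GRCm38.p6.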

Additional observations from a re-analysis of the deposited data

Results flagged for a closer look

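In 3 genes the C1q-expressing cells and the classical monocytes of the same IL-22-positive libraries moved in opposite directions, past 2-fold in each, between 12 h and 0 h. The difference between the cell groups was not tested, since each time has 1 library. Cxcl9 had a ratio of 7.66 (4.81 to 13.02) in C1q-expressing cells and 0.377 (0.309 to 0.462) in monocytes, with 289 of its 593 UMIs at 12 h in 3 of the C1q-expressing cells. Apoe had a ratio of 0.322 (0.309 to 0.337) in C1q-expressing cells and 2.03 (1.78 to 2.33) in monocytes. Maf, a transcription factor of macrophages, had a ratio of 0.465 (0.346 to 0.630) in C1q-expressing cells and 2.64 (1.40 to 5.60) in monocytes, and its ratio in C1q-expressing cells was 0.503 once its top cell was left out. In the C1q-expressing cells with neither Ly6c2 nor Ccr2, whose share was 56 of 216 at 12 h against 26 of 42 at 0 h, the ratio was 54.0 (18.3 to 263) for Cxcl9, 0.524 (0.494 to 0.556) for Apoe and 0.639 (0.397 to 1.03) for Maf. All members of 0 h together held 18 Cxcl9 UMIs, in 2 cells, so that Cxcl9 ratio rests on few UMIs and cells.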

How the results depend on the processing

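The 226 higher and 140 lower of 2499 measured genes became 8 and 8 of 60 in the 5 Kupffer-gene cells alone, where Tbxas1 reversed to 1.30, on 16 UMIs. With the UMI minimum they became 540 and 434 at 20 UMIs, 99 and 65 at 100, and 807 and 1224 at 1, where the numbers of genes measured differ. Thinning left 63 lower genes of 1160 measured, and leaving out the top cell of each gene left 90 of 2499. Cells with neither Ly6c2 nor Ccr2 gave 63 higher and 37 lower genes of 544, and those with either gave 93 lower of 1990. Where the number of genes measured differs, the counts of genes do not compare directly. The share of C1q-expressing cells in the 12 h IL-22-positive library was 13.2% with a minimum of 5 C1q UMIs. That of the 12 h IL-22-negative library was 0.901% without the exclusions. The share with a Kupffer gene in the 12 h IL-22-positive library was 0% after thinning and 0% with 2 UMIs asked for. Beyond the number of genes measured, the cause of these shifts was not tested. All 30 named genes stayed past 2-fold under both C1q minimums, the mitochondrial limit, Scrublet removal and both scalings, and 27 of 30 did after thinning. Vcan (1.84), Mxd1 (1.63) and Sulf2 (1.42) did not, on 26, 23 and 20 UMIs. Those values are lower bounds, because thinning left no UMI of these genes at 0 h. The 30 genes were named only if they stayed past 2-fold without the top cell, so that setting is no check on them. Scaling changes all ratios by the same factor (1.13 for the median ratio), which is small beside the ratios of these genes. Of the list genes, Ctsb, Ctsd, Fcgr4, Maf, Abca1, Pf4, Mrc1, Clec4n, Hspa1b and Fabp5 were between 0.503 (Maf) and 0.642 (Fabp5) without the top cell, and Ccl7 and Pfkl were 1.55 and 1.91, so none of these was past 2-fold there. With median-ratio scaling the interferon list had 9 and not 12 higher genes, the lysosomal list 5 and not 4 lower, and the alarmin list 1 lower gene. No paired analysis was possible because each group has 1 library. Depth limits the low genes: at 0 h 1 UMI over all members is worth 5.36 CPM.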
